A study of Mus musculus with 33 samples.

Results

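The 30 genes described here mark the parts of the mouse hippocampus and the tissue beside it that a dissected CA1 sample can hold. They comprise 4 markers of CA1 pyramidal neurons (Wfs1, Fibcd1, Mpped1, Pou3f1), 9 of dentate gyrus granule neurons (Prox1, Dsp, C1ql2, Calb1, Tdo2, Lct, Trpc6, Stxbp6, Pdzd2), 6 of CA3 (Bok, Nnat, Spock1, Iyd, Coch, Hs3st4) and 11 of the choroid plexus (Ttr, Kl, Folr1, Clic6, Kcnj13, Prlr, Enpp2, Aqp1, Otx2, Sulf1, Sostdc1). They were chosen by name, for where they are known to be expressed, but with earlier results of these data known. All 30 were found among the 38355 genes of the aged mice and the 40678 loci of the young mice.

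RNA from the microdissected CA1 was sequenced in 2 experiments with JQ1, an inhibitor of the BET bromodomain proteins. The aged mice, 8 to 10 months old, carried APP/PS1-21 on a C57B/6 background, a line with human transgenes, APP with the Swedish mutation among them, driven by the neuronal Thy1 promoter. For 10 days, 6 of them received 50 mg/kg JQ1 intraperitoneally (APP JQ1) and 6 received vehicle with 10% DMSO (APP vehicle), while 4 mice titled WT received vehicle (WT vehicle), although their strain label names the APP line. The young mice were male wild-type C57B/6JRj, 3 months old. Of these, 8 received 50 mg/kg JQ1 and 8 received vehicle with 10% DMSO for 13 days. The labels number these mice as replicates, and the p-values measure only the spread between these samples.

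The hippocampus is built from fields with different principal neurons. Granule neurons of the dentate gyrus send mossy fibres to the pyramidal neurons of CA3, and these project through the Schaffer collaterals to CA1. The choroid plexus is a secretory epithelium that lies in the ventricles against the hippocampus and makes cerebrospinal fluid, and its cells devote a very large part of their mRNA to transthyretin (Ttr). In a bulk sample, fewer cells of a type and less RNA per cell cannot be told apart.

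Among the aged mice 3 libraries stood apart and are named throughout. WT vehicle 4 held choroid plexus RNA at levels seen in no other mouse, and WT vehicle 1 was low for 3 of the 4 CA1 markers and for dentate markers and high for CA3 markers, as described below for each field. The library labelled APP JQ1 4 went against its genotype label. Its App level was 1775 CPM (counts scaled to a common total of counts on genes) against 2079 to 2739 in the other 11 APP mice and 1884 to 1978 in WT mice, its Thy1 level was 817 CPM against 1610 to 2363 and 820.1 to 1063 CPM, and it held 0 counts of Cst7, a gene of plaque-associated microglia that reached 13.4 to 56.3 CPM in the other APP mice. The aged libraries held 14605459 to 25339482 counts on genes, so that 3 counts corresponded to 0.118 to 0.205 CPM. The depth of the young libraries is unknown, since their values are FPKM, fragments scaled to gene length and library total.

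The CA1 markers were abundant in the 16 aged mice. Per kilobase of exon, the median WT level was 98.6 RPKM for Mpped1, 71.0 for Wfs1, 44.6 for Fibcd1 and 19.9 for Pou3f1, against 37.4 for Calb1, the highest of the dentate markers, and 7.30 for Prox1. Nnat, listed for CA3 but also expressed in other neurons, was at 162 RPKM, while the next CA3 markers were Hs3st4 at 21.4 and Bok at 7.63 RPKM. In the choroid plexus list Enpp2, which oligodendrocytes also express, was at 29.8 and Ttr at 14.1 RPKM, and the other 9 lay between 0.0811 and 2.64 RPKM.

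**Figure D1:**
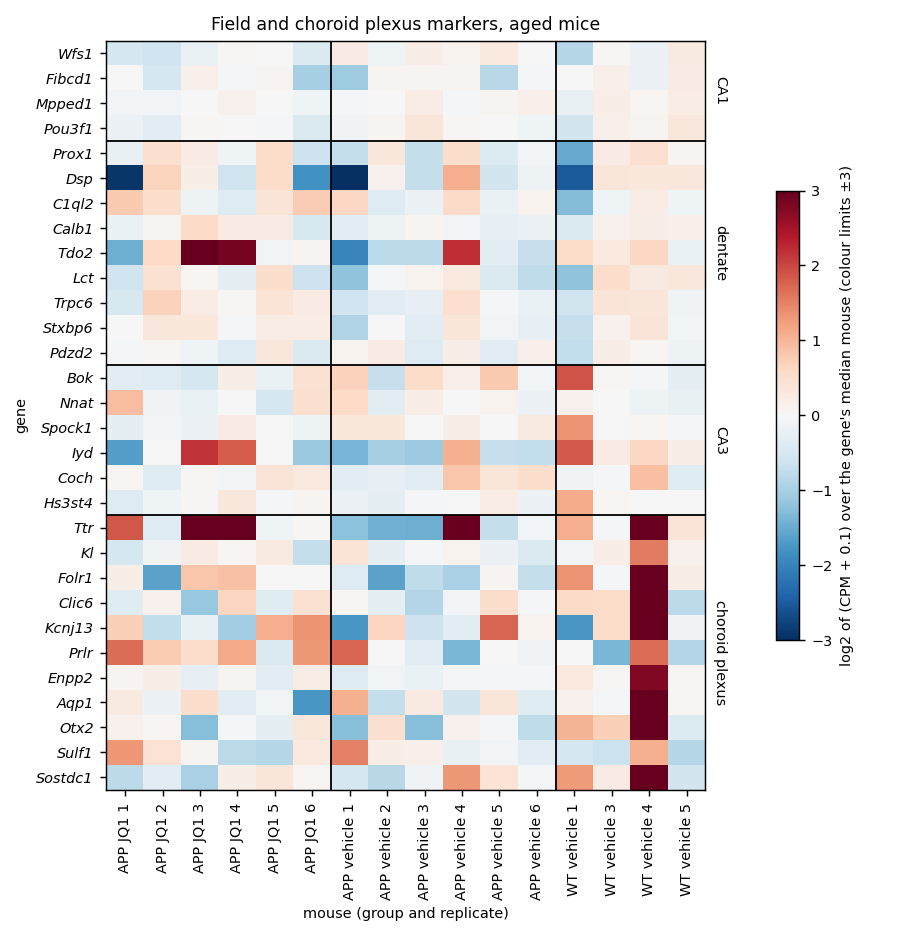
Level of the 30 markers in each of the 16 aged mice, as log2(CPM + 0.1) relative to the gene's median mouse, with colours limited to 3 above and below. Rows are grouped by field and columns by group; the choroid plexus rows of WT vehicle 4 and the CA3 rows of WT vehicle 1 stand out.

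Wfs1 encodes wolframin, a protein of the endoplasmic reticulum, and lies at chr5:36966104-36989205 on the minus strand (GRCm38). Its lowest, median and highest level was 185, 226 and 287 CPM in APP JQ1 mice and 258, 311 and 347 CPM in APP vehicle mice. The WT vehicle mice 1, 3, 4 and 5 had 156, 289.9, 248 and 341 CPM. The JQ1 and vehicle ranges overlapped, with 4 of 6 JQ1 mice below every vehicle mouse, and WT vehicle 1 had the lowest level of all 16 mice.

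Mpped1, a predicted metallophosphoesterase, varied least of the 4 CA1 markers, with a within-group SD of 0.13 on the log2 scale and levels between 331 and 449.8 CPM. Fibcd1, a receptor for acetylated ligands, ranged from 95.9 CPM in APP vehicle 1 to 238 CPM in WT vehicle 5. Pou3f1, a POU-domain transcription factor, ranged from 48.3 CPM in WT vehicle 1 to 91.4 CPM in APP vehicle 3. WT vehicle 1 was thus the lowest mouse for 3 of the 4 CA1 markers, Fibcd1 being the exception. Of 6 other CA1 genes (Man1a, Gpr161, Nov, Etv1, Zbtb20 and Foxp1) it was the lowest mouse for 0, and they summed to 916 CPM there against 896 to 905 CPM in the other WT mice. That list held 7 genes, of which 1 is not reported here or below.

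**Figure D2:**
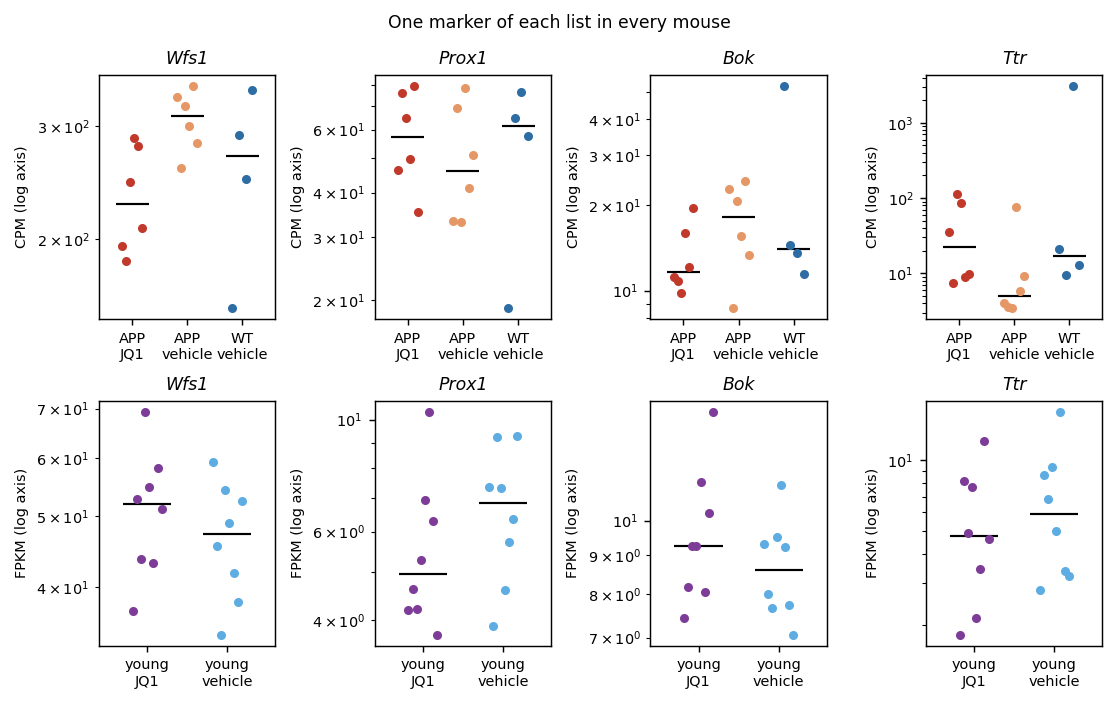
Level of Wfs1 (CA1), Prox1 (dentate gyrus), Bok (CA3) and Ttr (choroid plexus) in every mouse, on log axes, in CPM for the aged mice (top) and FPKM for the young mice (bottom). Each point is a mouse and each bar the group median; Ttr of WT vehicle 4 lies at 3117 CPM, and Bok of WT vehicle 1 at 52.5 CPM.

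Prox1 is the homeobox transcription factor that specifies and maintains granule neurons, and lies at chr1:190118035-190170714 on the minus strand, overlapping the antisense gene Prox1os. Its lowest, median and highest level was 35.2, 57.1 and 79.6 CPM in APP JQ1 mice and 33.1, 46.1 and 78.6 CPM in APP vehicle mice. The WT vehicle mice 1, 3, 4 and 5 had 19.0, 64.8, 76.3 and 57.6 CPM. Prox1 therefore varied more than 2-fold within every aged group, and the groups overlapped.

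Dsp, which encodes the desmosome protein desmoplakin, varied far more than Prox1. Its level was 3.52, 24.3 and 43.6 CPM (lowest, median, highest) in APP JQ1 mice and 1.92, 21.5 and 57.7 CPM in APP vehicle mice, and 4.66, 35.1, 33.9 and 34.5 CPM in WT vehicle mice 1, 3, 4 and 5. The spread of Dsp within groups, an SD of 1.52 on the log2 scale, compares with a median of 0.25 over all genes tested. Calb1, the calcium buffer calbindin, which CA1 neurons also express, lay between 118 and 243 CPM. Among the others, the level over the 16 mice was 35.96 to 89.0 CPM for Stxbp6, which encodes a SNARE-binding protein, and 29.6 to 62.1 CPM for Pdzd2, which encodes a PDZ-domain protein. It was 14.7 to 49.05 CPM for Lct, the disaccharidase lactase, 8.92 to 22.1 CPM for the cation channel Trpc6 and 5.44 to 23.2 CPM for C1ql2, a synaptic organizer secreted at mossy fibre terminals. WT vehicle 1 was lowest for C1ql2, Lct, Pdzd2 and Prox1.

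The dentate markers varied together across the 16 aged mice. Correlations were taken over the deviations of log2 levels from the group means. These means held every mouse of a group, also where 2 mice were then left out. The r without those mice is therefore not free of their influence, here and below. The deviations of Prox1 correlated with those of Dsp (Pearson's r = 0.82, permutation p = 0.00018, Spearman's rho = 0.87, permutation p = 2e-05), and r was 0.78 without APP JQ1 6 and WT vehicle 1, the mice whose deviations lay farthest from the Prox1 median deviation. Its correlation with Stxbp6 had r = 0.82 (permutation p = 8e-05), rho = 0.88 (permutation p = 4e-05) and r = 0.83 without those mice. Over the family of 24 marker pairs in the aged mice, the Benjamini-Hochberg adjusted p of r was 0.0011 for Dsp and 0.00072 for Stxbp6, and 6 of the 8 pairs of Prox1 with another dentate marker passed the 0.05 threshold. C1ql2 was one of the remaining 2 (r = 0.36, permutation p = 0.168; rho = 0.24, permutation p = 0.372), and its r without those mice was 0.19. Tdo2, which degrades tryptophan, was the other (r = 0.27, permutation p = 0.318; rho = 0.32, permutation p = 0.222; r = 0.34 without those mice). By rho, and without those mice, 5 of the 8 pairs passed.

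Prox1 and Dsp varied together in both experiments, as Prox1 also did with Stxbp6 and with Trpc6. The sequences before the starts of Prox1 and Dsp are shown as 250 bases 5′ to 3′ on the strand of the gene. They come from the RefSeq promoters of GRCm38.p6. The Prox1 window is chr1:190170828-190171077 (minus strand) with 64.8% G and C, and the Dsp window is chr13:38151044-38151293 (plus strand) with 72.4% G and C, part of it in an exon of Gm10129 on the opposite strand. No letters are in capitals because no motif was marked in them.
Prox1: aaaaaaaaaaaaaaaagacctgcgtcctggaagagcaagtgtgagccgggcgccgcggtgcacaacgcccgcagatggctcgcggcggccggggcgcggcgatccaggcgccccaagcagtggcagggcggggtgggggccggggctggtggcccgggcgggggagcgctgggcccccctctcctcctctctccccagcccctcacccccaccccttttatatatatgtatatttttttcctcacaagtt
Dsp: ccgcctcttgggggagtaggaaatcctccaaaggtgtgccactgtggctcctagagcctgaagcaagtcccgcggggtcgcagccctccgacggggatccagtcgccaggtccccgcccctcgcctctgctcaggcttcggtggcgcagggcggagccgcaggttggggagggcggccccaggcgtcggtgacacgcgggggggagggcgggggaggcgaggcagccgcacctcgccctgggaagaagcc
Over the 32851 promoters of the table the median share of G and C in the 250 bases before the start was 52.4%, against 65.0% for the 8 dentate markers in the table, 71.6% for 3 CA1 markers, 58.2% for 6 CA3 markers and 48.0% for 5 choroid plexus markers.

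The low mice for dentate markers were WT vehicle 1 and APP vehicle 1, each the lowest of the 16 for 4 of 9. The 9 markers summed to 252 CPM in WT vehicle 1 and 300.4 CPM in APP vehicle 1, against 342 to 577 CPM in the other 14 mice. WT vehicle 1 was also the lowest mouse for 5 of 12 other dentate genes (among them Dock10, Penk and Rfx3), which summed to 331 CPM there and 424 to 649.8 CPM elsewhere. APP vehicle 1 was likewise lowest for 5 of those 12 and highest for 2, with a sum of 568.3 CPM. The sum of dentate genes outside the 9 was thus low in WT vehicle 1 but not in APP vehicle 1. Their median log2 ratio to the gene's median mouse was low in both, at -0.51 and -0.41. In the next lowest mouse, the library labelled APP JQ1 4, it was -0.22.

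In CA3 the leading mouse was WT vehicle 1. Bok, a relative of the BCL-2 apoptosis regulators at chr1:93685660-93695764 on the plus strand, had 9.77, 11.7 and 19.4 CPM (lowest, median, highest) in APP JQ1 mice and 8.66, 18.1 and 24.3 CPM in APP vehicle mice. The WT vehicle mice 1, 3, 4 and 5 had 52.5, 14.5, 13.6 and 11.5 CPM, so the highest mouse was 2.16-fold above the next. Spock1, a proteoglycan of the extracellular matrix, was at 77.3 CPM in WT vehicle 1 and at most 37.3 CPM elsewhere, and Hs3st4, a heparan sulfate sulfotransferase, at 144 and at most 85.1 CPM. These 3 of the 6 CA3 markers were highest in WT vehicle 1, as were 8 of 11 other CA3 genes (among them Grik4, Dkk3 and Cpne4), which summed to 1438 CPM there and 804.5 to 1069 CPM in the other 15 mice.

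Nnat and Coch were not highest in that mouse. Nnat, which encodes the imprinted small protein neuronatin, ranged from 215 CPM in APP JQ1 5 to 589 CPM in APP JQ1 1, and Coch, which encodes cochlin, from 3.13 to 7.72 CPM. Iyd, an iodotyrosine deiodinase, was at 0.205, 0.864 and 4.22 CPM (lowest, median, highest) in APP JQ1 mice, 0.268, 0.431 and 1.91 CPM in APP vehicle mice, and 3.35, 1.04, 1.37 and 1.01 CPM in WT vehicle mice 1, 3, 4 and 5. It was thus high in WT vehicle 1 among WT mice and highest in APP JQ1 3.

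Choroid plexus markers gave the widest range of any of the 4 lists. Ttr, the thyroxine and retinol carrier transthyretin at chr18:20665280-20674321 on the plus strand, was at 35.5, 7.36, 114, 85.0, 8.92 and 9.86 CPM in APP JQ1 mice 1 to 6, the fourth being the library labelled APP JQ1 4. In APP vehicle mice 1 to 6 it was at 4.06, 3.52, 3.43, 75.9, 5.88 and 9.08 CPM. In WT vehicle mice 1, 3, 4 and 5 it was at 20.7, 9.51, 3117 and 12.8 CPM. The level in WT vehicle 4 was 27.2-fold that of the next mouse, APP JQ1 3, and all groups overlapped.

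WT vehicle 4 was the highest of the 16 mice for 9 of the 11 choroid plexus markers. Its level relative to the next mouse was 21.3-fold for Otx2, the homeobox factor of choroid plexus epithelium, 20.3-fold for the folate receptor Folr1, 20.0-fold for the chloride channel protein Clic6, 4.76-fold for the water channel Aqp1 and 2.22-fold for Kl, which encodes the FGF23 co-receptor klotho. Enpp2, the enzyme autotaxin at chr15:54838901-54952892 on the minus strand, was at 1039 CPM there and 116 to 186 CPM in the other 15 mice. Kcnj13, an inwardly rectifying potassium channel, was at 4.72 CPM there and 0 to 1.03 CPM elsewhere, and Sostdc1, a secreted BMP and Wnt antagonist, at 15.8 and 0.819 to 4.31 CPM. The exceptions were the prolactin receptor Prlr and the sulfatase Sulf1, which were highest in APP vehicle 1 at 10.7 and 32.3 CPM. The 11 markers summed to 4334 CPM in WT vehicle 4 and to 171 to 289 CPM elsewhere, and 18 of 20 other choroid plexus genes (among them Kcne2, Cldn2 and Tmem72) were highest there too. The 8 ependymal genes summed to 19.9 CPM in that mouse, within the range of 8.78 to 26.4 CPM over the aged mice, and 9 leptomeningeal genes to 290.1 CPM, the highest of 105 to 290.1 CPM. The part of dissection in these levels was not tested.

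In the other mice the most specific choroid plexus markers were close to 0. Folr1 had 0 to 14 counts and Otx2 0 to 8 counts in the 15 mice other than WT vehicle 4, with 322 and 193 counts in that mouse. Most of these levels lay near the 3-count floor, where differences among mice were not detectable at this depth.

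In the RefSeq promoters, a record of Otx2 was the 1 record, of 29 promoter records for 22 members, that held TAATCC, the core letters that OTX proteins are known to bind, in either orientation, without overlap with another motif. Of all 32851 promoters, 7.06% held it. The 30 bases around the match, which lie at chr14:48665303-48665332 on the minus strand of GRCm38.p6 within exons of other Otx2 transcripts, are shown with the motif in capitals, in the orientation opposite to TAATCC.
Otx2: cgtgtgcccctcGGATTAtctcgttagttt
The match is a description of these letters. The promoters of Enpp2, Sostdc1, Folr1, Calb1, Ttr, Pou3f1, Clic6 and Sulf1 were not analysed here.

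Apart from WT vehicle 4, Ttr was highest in 3 mice in which Tdo2 was highest as well. APP JQ1 3, the library labelled APP JQ1 4 and APP vehicle 4 had 114, 85.0 and 75.9 CPM of Ttr. They had 45.7, 31.0 and 19.4 CPM of Tdo2, where the other 13 mice had 0.981 to 6.43 CPM, and 4.22, 3.32 and 1.91 CPM of Iyd, where the others had 0.205 to 1.37 CPM and WT vehicle 1 had 3.35 CPM. Folr1 stayed at 0.441, 0.465 and 0.055 CPM and Otx2 at 0, 0.133 and 0.164 CPM in those mice. In WT vehicle 4, in contrast, Tdo2 was at 6.43 and Iyd at 1.37 CPM beside a Ttr level of 3117 CPM. These mice were singled out after their values were seen.

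**Figure D3:**
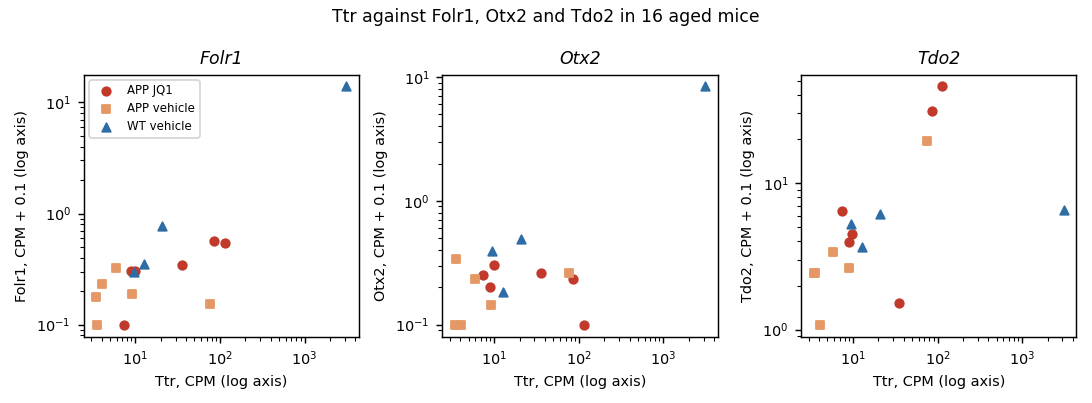
Ttr (x axis) against Folr1, Otx2 and Tdo2 (y axes) in the 16 aged mice, all in CPM on log axes with 0.1 added to the y values, each point being a mouse. WT vehicle 4 lies apart in the Folr1 and Otx2 panels, and the 3 mice with 75.9 to 114 CPM of Ttr lie apart in the Tdo2 panel.

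Across the 16 aged mice, 7 of the 10 pairs of Ttr with another choroid plexus marker passed the 0.05 threshold by r. Ttr and Folr1 had r = 0.78 (permutation p = 0.00056, adjusted p = 0.00224) and rho = 0.72 (permutation p = 0.00207), and r was 0.74 without WT vehicle 4 and APP vehicle 4, whose deviations lay farthest from the Ttr median deviation. Ttr and Enpp2 had r = 0.75 (permutation p = 0.00303) and rho = 0.42 (permutation p = 0.106), and r was 0.41 without those mice. By rho, and without those mice, 1 of the 10 pairs passed, that with Folr1, and the other 6 rested on those mice. The group means still held WT vehicle 4, so the r of 0.74 without it was not free of that mouse. Folr1 had 0 to 14 counts outside WT vehicle 4, and 1 count in APP vehicle 4 beside 75.9 CPM of Ttr, so this pair could not be resolved at this depth. For Wfs1, the pair with Pou3f1 had r = 0.79 (permutation p = 0.00029) and rho = 0.70 (permutation p = 0.00348), and r was 0.58 without WT vehicle 1 and WT vehicle 5, when 0 of 3 CA1 pairs passed.

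The first comparison asked what JQ1 changed in APP mice. None of the 28 members tested had a Benjamini-Hochberg adjusted p under 0.05 in edgeR (quasi-likelihood, adjusted over all 16962 genes), where 1.08% of genes were called, 0.619% higher and 0.466% lower. Folr1 and Otx2 were below the filter on low counts. At an unadjusted p under 0.05 there was 1 member, Wfs1, or 3.57% of members beside 17.6% of all genes, and DESeq2 also called 0 members. None of the 30 had groups that did not overlap, beside 2.12% of all genes tested. The log2 fold change of Wfs1 was -0.39 (SE 0.15, adjusted p = 0.198) and -0.45 (adjusted p = 0.216) without the library labelled APP JQ1 4. The study's published list for this comparison, from its own processing, does include Wfs1, as lower in JQ1-treated APP mice.

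By field, the median log2 fold change of JQ1 over vehicle was -0.15 for the 4 CA1 markers, 0.26 for the 9 dentate markers, -0.03 for the 6 CA3 markers and 0.07 for the 9 choroid plexus markers tested, beside -0.0010 over all genes tested. Of the dentate markers, 7 of 9 were positive, from Stxbp6 at 0.35 (SE 0.18, adjusted p = 0.322) and Prox1 at 0.20 (SE 0.32, adjusted p = 0.79), whose values turned to -0.14 and -0.11 with a correction for GC content and length, to Tdo2 at 1.61 (SE 0.87, adjusted p = 0.361). Calb1 was at 0.26 (SE 0.15) and Dsp at -0.04 (SE 0.72). The 12 other dentate genes had a median of -0.02. The 6 other CA1 genes reported here, of 7 listed, were all positive, with a median of 0.25 and 0 called. They summed to 752 to 1103 CPM (median 940.1) in APP JQ1 and 664 to 881 CPM (median 756) in APP vehicle mice. This was the opposite direction to the median of the 4 CA1 markers, though not to each of them. Fibcd1 had a mean of 177 CPM in APP JQ1 and 173 CPM in APP vehicle mice.

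Larger values with larger errors were those of genes that were high in few mice. Ttr was at 1.38 (SE 1.44, adjusted p = 0.664), Iyd at 1.35 (SE 0.68, adjusted p = 0.319) and Prlr at 0.66 (SE 0.55, adjusted p = 0.572). Without APP vehicle 4 the Ttr value was 3.06, and without APP JQ1 3 it was 0.82. The Iyd value was 2.02 and 0.80 without the same mice. Leaving out any other single mouse, the library labelled APP JQ1 4 among them, gave Ttr and Iyd values between these. The Prlr value was 1.27 without APP vehicle 1. Bok was at -0.41 (SE 0.36, adjusted p = 0.593).

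The second comparison, of vehicle-treated APP with WT mice, asked what the transgenes changed. No member of 28 was called, beside 2.57% of the 16962 genes, 2.49% higher and 0.0825% lower. Unadjusted, 7 members, or 25.0%, were under 0.05 beside 14.4% of all genes, 6 of them choroid plexus markers, and DESeq2 called 0. Enpp2 was the 1 member of 30 whose groups did not overlap, with 116 to 148 CPM in vehicle APP and 155 to 1039 CPM in WT mice, beside 6.99% of all genes.

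The choroid plexus values turned on WT vehicle 4. The median over the 9 markers tested was a log2 fold change of -1.56 with that mouse and 0.09 without it, beside 0.0093 over all genes tested with every mouse. Ttr was at -5.55 (SE 1.72, adjusted p = 0.133) and at 0.18 (adjusted p = 0.959) without it. Clic6 was at -3.22 (SE 0.84, adjusted p = 0.0571) and at -0.34 without it, and was called at -3.61 without WT vehicle 5. Enpp2, tested here after its values were seen, was at -1.46 (SE 0.43, adjusted p = 0.109) and at -0.29 (SE 0.12, adjusted p = 0.246) without WT vehicle 4. Among 14 other choroid plexus genes tested, 1 was called lower, Calml4 at -3.07 (adjusted p = 0.0499), and their median was -0.96 with that mouse and 0.22 without it.

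The CA3 values turned on WT vehicle 1. Their median was -0.36 with every mouse and 0.05 without WT vehicle 1. Hs3st4 was at -0.45 (SE 0.20, adjusted p = 0.300) and at -0.08 without it, and Bok at -0.41 (SE 0.39, adjusted p = 0.685) and at 0.40 without it. The CA1 markers had a median of 0.0010 and the dentate markers of -0.12, with Wfs1 at 0.25 (SE 0.17, adjusted p = 0.552), Prox1 at -0.09 (SE 0.36, adjusted p = 0.94) and C1ql2 at 0.38 (SE 0.28, adjusted p = 0.576). Wfs1 was at -0.06 without WT vehicle 1 and WT vehicle 4, when 0 members had an unadjusted p under 0.05 and 7.64% of all genes did.

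**Figure D4:**
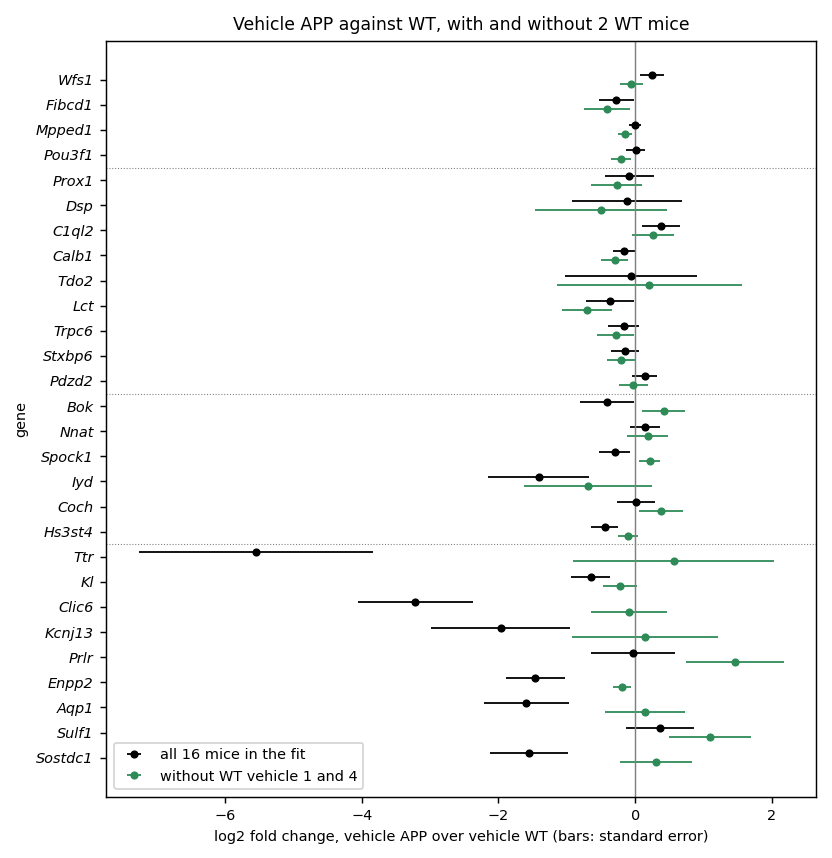
Log2 fold change of vehicle APP over WT mice with its standard error for the 28 members tested, in edgeR's fit of all 16 aged mice (black) and without WT vehicle 1 and WT vehicle 4 (green). The choroid plexus values, with a median of -1.56, moved to a median of 0.15 without those mice.

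Astrocyte and microglia genes were higher in vehicle APP mice, and the summed level of neuron genes was lower. Of 6 microglia genes 4 were called higher (Cx3cr1, Csf1r, Itgam and C1qa), as were 2 of 6 astrocyte genes (Gfap and Sox9) and the mossy cell gene Glipr1. Microglia genes summed to 472 to 856 CPM in vehicle APP and 233 to 287 CPM in WT mice. The 6 neuron genes summed to 8972 to 10154 CPM in vehicle APP and 10787 to 11570 CPM in WT mice, without overlap, although 0 of them were called, 3 having an unadjusted p under 0.05. The 6 other CA1 genes reported here, of 7 listed, were all negative, with a median of -0.20, 0 called and 2 with an unadjusted p under 0.05. The part of the shares of glial and neuronal RNA in the field markers was not tested.

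The third comparison set JQ1-treated APP mice against WT mice, with the same WT mice as the second. No member of 28 was called beside 2.06% of all genes, 1.93% higher and 0.13% lower. Unadjusted, 8 members (28.6%) were under 0.05 beside 14.1% of all genes. DESeq2, which called more genes than edgeR here, called 1 member, Sostdc1, as lower. Sostdc1 was at 15.8 CPM in WT vehicle 4 and at 4.28, 2.02 and 1.13 CPM in WT vehicle 1, 3 and 5. In JQ1-treated APP mice it was at 0.819 to 2.20 CPM. None of the 30 had groups that did not overlap, beside 3.51% of all genes. The choroid plexus median was -1.85 with every mouse and -0.15 without WT vehicle 4, with Ttr at -4.16 (SE 1.62, adjusted p = 0.25) and 1.57 without it, and Clic6 at -3.15 (SE 0.85, adjusted p = 0.0716) and -0.26 without it.

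The 4 CA1 markers were all negative against WT mice, with a median of -0.17, Wfs1 at -0.15 (SE 0.17, adjusted p = 0.783) and Pou3f1 at -0.19 (SE 0.14, adjusted p = 0.611). Without WT vehicle 1 and WT vehicle 4, which left only WT vehicle 3 and WT vehicle 5, the median was -0.40. In that fit 0 of the 4 were called, beside 3 of all genes. The 6 other CA1 genes had a median of -0.03 with 2 positive. The 6 neuron genes were all negative, with 0 called, and summed to 8549 to 10455 CPM in JQ1-treated APP mice, below the 10787 to 11570 CPM of the WT mice. Of the other lists, the interneuron gene Sst was called lower at -0.48 (SE 0.11, adjusted p = 0.0291), and Aqp4, Gfap, Slc1a3 and Sox9 of astrocytes and Cx3cr1, Csf1r and C1qa of microglia were called higher. Their part in the field markers was not tested. Of the CA3 markers, Spock1 was at -0.55 (SE 0.23, adjusted p = 0.281) and -0.06 without WT vehicle 1, and Bok at -0.82 (SE 0.39, adjusted p = 0.367) and 0.0010 without it. C1ql2 was at 0.62 (SE 0.28, adjusted p = 0.33), and Prox1 at 0.12 (SE 0.36, adjusted p = 0.929), a value that turned to -0.56 with the GC and length correction.

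Young wild-type mice held the same markers, at levels given here as FPKM. Wfs1 had 37.2, 51.9 and 69.3 FPKM (lowest, median, highest) in JQ1 mice and 34.5, 47.2 and 59.2 FPKM in vehicle mice, and Mpped1 had 113, 126 and 144 FPKM against 112, 119 and 125 FPKM. Prox1 had 3.75, 4.94 and 10.4 FPKM in JQ1 mice and 3.89, 6.85 and 9.27 FPKM in vehicle mice. Ttr had 1.82, 4.76 and 12.04 FPKM in JQ1 mice and at most 15.995 FPKM in vehicle mice, with no mouse as far apart as WT vehicle 4. The ranges of JQ1 and vehicle mice overlapped for each of the 30 markers, and 0.0271% of all loci tested did not overlap.

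**Figure D5:**
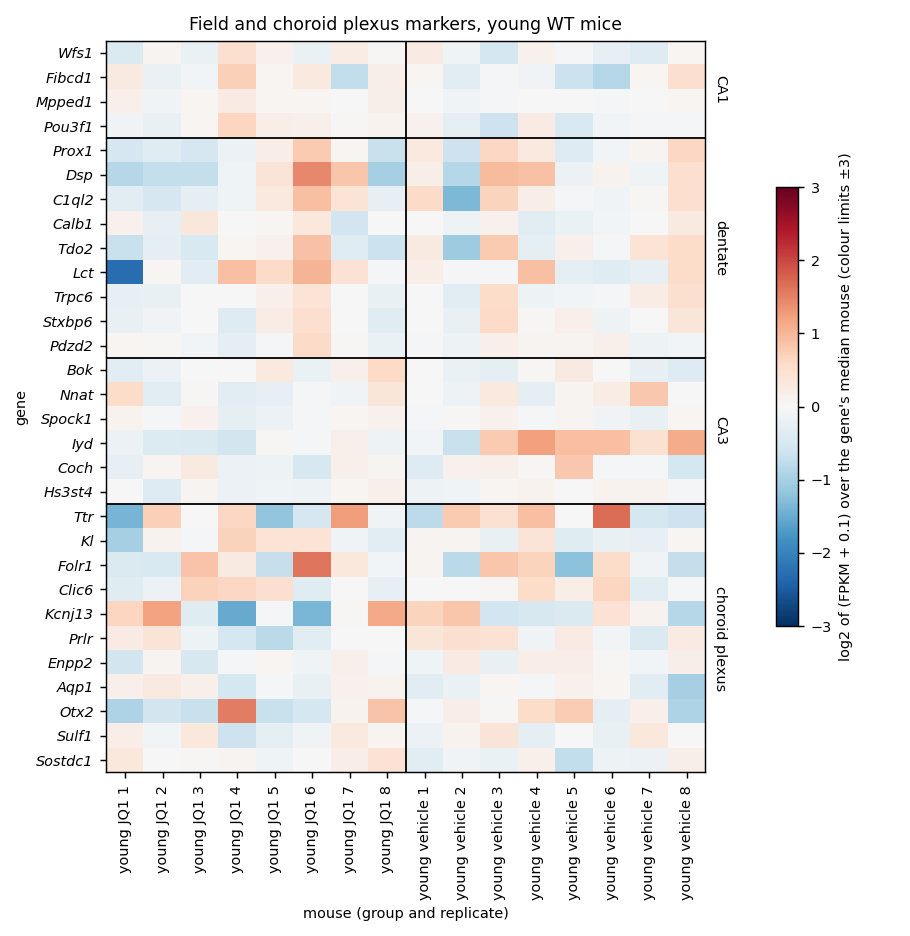
Level of the 30 markers in each of the 16 young mice, as log2(FPKM + 0.1) relative to the gene's median mouse, with colours limited to 3 above and below. Rows are grouped by field and columns by group; young JQ1 6 stands out in the dentate rows and young JQ1 4 in the CA1 rows.

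Single young mice were highest for many markers of a field. Young JQ1 6 was the highest of the 16 for 6 of 9 dentate markers and for 6 of 12 other dentate genes, and young JQ1 4 was the highest for 4 of 4 CA1 markers, for 2 of 6 other CA1 genes and for 4 of 6 general neuron genes (among them Snap25, Syt1 and Camk2a). Prox1 and Dsp had r = 0.92 (permutation p = 1e-05) and rho = 0.92 (permutation p = 1e-05), the smallest p that these permutations can give, and r was 0.86 without young JQ1 6 and young vehicle 2, whose deviations lay farthest from the Prox1 median deviation. Prox1 and C1ql2 had r = 0.89 (permutation p = 1e-05), rho = 0.89 (permutation p = 1e-05) and r = 0.87 without those mice. Over the 24 pairs of the young mice both adjusted p were 0.00012, and 5 of 8 dentate pairs passed by r and 6 by rho. Of the 10 Ttr pairs 0 passed by r, and the highest, with Enpp2, had r = 0.43 (permutation p = 0.0993; rho = 0.38, permutation p = 0.145; r = 0.34 without young JQ1 1 and young vehicle 6).

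JQ1 in the young mice called no member of the 24 tested by limma on log2(FPKM + 0.1), beside 0.00543% of 18420 loci. Iyd, Clic6, Prlr, Aqp1, Folr1 and Otx2 were under the filter on low FPKM, and the Prlr locus of the young mice also spans Agxt2. Unadjusted, 2 members (8.33%) were under 0.05 beside 4.65% of loci, namely Mpped1 at a log2 fold change of 0.11 (SE 0.05) and Sostdc1 at 0.29 (SE 0.14), both with an adjusted p of 0.981. The 4 CA1 markers were all positive, with a median of 0.18 beside 0.0025 over all loci, and with Wfs1 at 0.13 (SE 0.13). The medians of the dentate, CA3 and choroid plexus markers were -0.10, -0.08 and -0.02, with Prox1 at -0.25 (SE 0.21), Bok at 0.14 (SE 0.12), Hs3st4 at -0.08 (SE 0.07) and Ttr at -0.31 (SE 0.44). Each of these had an adjusted p of 0.981. Without 1 mouse, Wfs1 was at 0.061 (young JQ1 4), Bok at 0.062 (young JQ1 8), Ttr at -0.11 (young vehicle 6), Hs3st4 at -0.036 (young JQ1 2) and Prox1 at -0.38 (young JQ1 6). The 6 other CA1 genes had a median of 0.03 with 4 positive. Iyd, which was too low to be tested, ranged from 0.153 to 0.307 FPKM in JQ1 and from 0.131 to 0.759 FPKM in vehicle mice.

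The fields differed in how much their markers varied within groups. In the aged mice, the median within-group SD on the log2 scale was 1.01 for 9 choroid plexus markers, 0.51 for the dentate, 0.42 for the CA3 and 0.28 for the CA1 markers, beside 0.25 over all genes tested. Of the 9 choroid plexus markers, 7 lay above the 90th percentile of all genes. Without WT vehicle 1 and WT vehicle 4 the medians were 0.71, 0.44, 0.40 and 0.20, beside 0.245, so that the order was kept. In those mice 3 of the 9 choroid plexus markers lay above the 90th percentile. Genes were not matched for level here, and Kcnj13, for example, had at most 23 counts outside WT vehicle 4. In the young mice they were 0.35, 0.46, 0.26 and 0.27 on the log2(FPKM + 0.1) scale, beside 0.18.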

How the data were processed

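CA1 RNA was sequenced in 33 mice, of which 32 had values (WT vehicle 2 was not analysed here). For the aged mice the authors deposited raw counts per Ensembl gene (mm10), made with STAR and HTSeq. For the young mice the deposited values are FPKM per locus from Cufflinks, so their depth is not known. The strand setting of the counting is not given in the sources used here, and 9 members overlap another gene. Each count file holds 5 rows that name no gene, which were left out; reads on no feature were 15.4 to 26.9% of each library.

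Aged counts were fitted in 1 model of 3 groups with edgeR 4.0.16 (TMM, filterByExpr, robust quasi-likelihood test, 16962 genes), and young values with limma 3.58.1 (trend, robust) on log2(FPKM + 0.1) for the 18420 loci of at least 0.5 FPKM in at least 8 mice. A call was a Benjamini-Hochberg adjusted p under 0.05, and CPM were counts scaled to a common total of counts on genes. DESeq2 1.42.0, other scalings, filters, a replicate block, a GC and length correction and leaving out mice were alternatives. Correlations between Wfs1, Prox1 or Ttr and the other markers used deviations of log2 levels from group means over 16 mice and 100000 permutations, two-sided, in 24 pairs per experiment. The group means were not taken again where mice were left out. The scripts were tested on simulated data.

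The members and lists were chosen with earlier results of these data known. Named genes were Wfs1, Prox1, Bok and Ttr in each comparison, and of each list the gene with the lowest p. Promoters came from RefSeq and positions from GENCODE (GRCm38). Counting error alone sets the 3-count floors. A few items are not reported here.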

Additional observations from a re-analysis of the deposited data

Results flagged for a closer look

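Dixon's 95% limit flags about 5% of groups by chance where values are independent and normally distributed. The levels here were not log-transformed and the markers share the same mice, so that share need not hold. In 26 of 150 combinations of a marker and a group of 4 to 8 mice, the highest or lowest mouse stood farther from the nearest other than this limit. WT vehicle 4 accounted for 9 of them, all in choroid plexus markers: Ttr at 3117 CPM, Enpp2 at 1039, Kl at 64.7, Clic6 at 26.5, Sulf1 at 23.7, Folr1 at 13.8, Aqp1 at 9.78, Otx2 at 8.28 and Kcnj13 at 4.72 CPM, each above the other WT mice. WT vehicle 1 accounted for 6. It was above the other WT mice for Hs3st4 at 144, Spock1 at 77.3, Bok at 52.5 and Iyd at 3.35 CPM, and below them for Calb1 at 122 and Dsp at 4.66 CPM.

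Among APP vehicle mice, APP vehicle 4 was apart at 75.9 CPM of Ttr, 19.4 CPM of Tdo2 and 1.91 CPM of Iyd, APP vehicle 1 at 32.3 CPM of Sulf1 and 10.7 CPM of Prlr, and APP vehicle 3 at 91.4 CPM of Pou3f1. No APP JQ1 mouse was apart by this limit. In the young mice, young JQ1 6 was apart at 4.95 FPKM of Pdzd2 and 2.94 FPKM of Tdo2, young JQ1 4 at 27.2 FPKM of Pou3f1, young vehicle 7 at 447 FPKM of Nnat and young vehicle 5 at 3.77 FPKM of Coch. For 0 markers did JQ1 and vehicle groups lie apart in opposite directions in aged APP and young mice. This adds nothing, since 0 of the 30 markers had JQ1 and vehicle groups that did not overlap in either experiment.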

How the results depend on the processing

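Of 729 alternative values for 29 named fold changes, 698 kept their sign and side of the threshold, 29 reversed and 2 passed it. Genes called for JQ1 in APP mice were 749 by DESeq2, 8 with the GC and length correction, 87 with the replicate block, 13 with both, 95 without all 3 libraries that stood apart, and 65 to 446 without 1 mouse (APP JQ1 2, WT vehicle 1). For vehicle APP over WT mice they were 798, 167, 35, 166 and 253, with 679 from the 2 groups alone, 0 without both WT mice that stood apart (1357 unadjusted), and 154 to 601 (WT vehicle 1, the library labelled APP JQ1 4). For JQ1-treated APP over WT mice they were 800, 222, 21 and 65, with 227 from the 2 groups alone, 3 without both WT mice, and 11 to 651 (WT vehicle 5, the library labelled APP JQ1 4). There, 84 of the 222 were higher, against 327 of 349 without the correction. Loci called in young mice were 0 with the block or no filter and 0 to 2 without 1 mouse.

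Members called were 1 for vehicle APP over WT without a filter (Folr1) and 0 to 1 without 1 mouse (Clic6 without WT vehicle 5, -3.61), and 1 for JQ1-treated APP over WT by DESeq2 (Sostdc1) or the correction (Spock1, -1.08). Correlated pairs of Ttr fell to 1 by rho or without 2 mice, those of Wfs1 to 0 without 2 mice in aged, and to 0 by both in young mice.

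Reversed values were, with the correction, Prox1 -0.11 and Stxbp6 -0.14 (JQ1 in APP; with the block -0.11 and -0.11), Wfs1 -0.10 (vehicle APP over WT; with the block C1ql2 -0.028) and Prox1 -0.56 (JQ1-treated APP over WT; with the block -0.44). Without both WT mice they were Bok 0.42, Ttr 0.56 and Wfs1 -0.056 (all 3 libraries 0.43, 0.58 and -0.042) for vehicle APP, and Bok 0.012, Prox1 -0.065 and Ttr 1.95 (all 3 libraries, Prox1 -0.011 and Ttr 1.65) for JQ1-treated APP. Without 1 mouse, vehicle APP over WT ranged from -0.37 to 0.10 for Prox1, -0.64 to 0.40 for Bok and -7.22 to 0.18 for Ttr, and JQ1-treated APP over WT from -1.05 to 0.0010 for Bok, -0.17 to 0.31 for Prox1, -4.73 to 1.57 for Ttr and -0.33 to 0.027 for Wfs1. The cause was not tested.

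The labels share replicate numbers, but mice of 1 number did not deviate together in every pair (mean r 0.12 with 3 of 6 pairs over 0.1 for JQ1 and vehicle APP, -0.05 with 0 of 4 for vehicle APP and WT, 0.03 with 1 of 8 in young mice), so the block stayed an alternative. It changed no call of a member. Folr1, Otx2 and Kcnj13 lay near the 3-count floor in most mice.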
